A study of Mus musculus with 6 samples.

Results

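The genes described here encode the subunits of mouse potassium channels and were taken as every probe whose gene name on the array starts with Kcn, apart from the 5 probes of the non-coding transcript Kcnq1ot1. The array carried 176 such probes for 97 gene names, and 136 probes for 84 gene names were kept because the scanner software flagged their signal as clearly over background throughout 1 or both groups of 3 arrays. Across the whole array the same filter kept 34444 probes for 22117 gene names. Each of the 136 Kcn probes was well above background on all 3 vehicle arrays, 124 were so on all 6 arrays, and 12 were kept through the vehicle arrays alone, so those 12 could differ in 1 direction more easily than in the other. The other 40 probes were not kept, and 13 genes had no kept probe at all: Kcna10, Kcne1, Kcnj1, Kcnj15, Kcnk5, Kcnk7, Kcnk9, Kcnk15, Kcnk16, Kcnk18, Kcnmb3, Kcnmb4os1 and Kcnv2.

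The data are 6 one-colour Agilent expression arrays of total RNA from the hypothalamus of male C57BL/6J mice made obese by diet (DIO mice), and the question they address is which transcripts change when the Kdm6 histone demethylases are inhibited. GSK-J4 is a cell-permeable inhibitor of the Kdm6 enzymes, which remove methyl groups from lysine 27 of histone H3. The treated group (n = 3) received GSK-J4 at 30 mg/kg and the control group (n = 3) received vehicle, which is DMSO in water according to the methods. Both groups ate the same diet with 60 kcal% fat, which the methods give as 16 weeks of feeding from an age of 6 weeks. The labels place the measurement on day 4 of exposure, while the methods describe daily injection at ZT 2 h over 21 d with tissue taken at ZT 6 h, so the length of treatment is not settled by the sources. How many mice gave the RNA of an array is not stated in the sources used here, so p-values measure only the spread between these samples. All vehicle arrays were on slide 1 and in scan 1 and all GSK-J4 arrays on slide 2 and in scan 2, so slide, scan and treatment cannot be told apart. The 75th percentile of the scanner signal was 1136 to 1335 on the vehicle arrays and 606 to 693 on the GSK-J4 arrays, and 62.8% to 63.6% against 57.7% to 58.7% of the probes were well above background. Of 12 hypothalamic neuron markers, 6 had a kept probe, Agrp, Cartpt, Hcrt, Npy, Oxt and Pomc. Avp, Nkx2-1, Otp, Pmch, Sim1 and Trh had none, while all 10 pan-neuronal and all 8 astrocyte markers did. Marker levels moved between the groups too. The summed signal of the 6 hypothalamic markers was 3452 to 3779 on the vehicle arrays and 4824 to 5336 on the GSK-J4 arrays, with Npy (0.42, adjusted p = 0.0267) and Pomc (0.85, adjusted p = 0.022) called higher in limma. Of 8 microglial markers C1qa (0.41, adjusted p = 0.0305) and C1qb (0.46, adjusted p = 0.0487) were called higher, and their summed signal was 21814 to 23626 on the vehicle arrays and 18233 to 29686 on the GSK-J4 arrays. Csf1r (-0.35, adjusted p = 0.663) and P2ry12 (-0.01, adjusted p = 0.964) went the other way. The pan-neuronal marker Map2 (-0.33, adjusted p = 0.043) and the pericyte marker Rgs5 (-0.57, adjusted p = 0.0186) were called lower. Rax, a tanycyte marker at 3.86 to 4.17 on the vehicle arrays, was called higher (1.09, adjusted p = 0.0323). The part of the cell makeup of the samples in the channel values was not tested.

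Potassium channels let K+ leave or enter a cell along its gradient, and in neurons they set the resting potential, repolarise the action potential and shape the firing rate. Voltage-gated (Kv) channels open on depolarisation, calcium- and sodium-activated channels on a rise of those ions inside the cell, inward rectifiers (Kir) near rest, and K2P channels give a steady leak. In the hypothalamus the ATP-sensitive inward rectifiers couple glucose metabolism to firing, and G protein-gated inward rectifiers carry the slow inhibition that GABA and opioid receptors evoke in feeding neurons.

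Values are log2 signals deposited by the authors after quantile normalization, and differences are GSK-J4 minus vehicle on that scale. A probe was called when its adjusted p was 0.05 or less in limma, a linear model fitted to all 34444 kept probes with Benjamini-Hochberg adjustment. By this rule 12 of the 136 Kcn probes were higher (8.82%) and 14 were lower (10.3%), against 8.39% and 8.42% of all kept probes. The Kcn shares were thus close to those of the array as a whole. The 12 rises came from 11 genes and the 14 falls from 11 genes, with 20 genes holding at least 1 call. Among the 124 probes well above background on all 6 arrays 12 were higher and 10 lower, 9.68% and 8.06%, beside 9.1% and 7.86% of all such probes. With the thresholds of the study's methods, a fold of 1.5 or more and an unadjusted limma p no larger than 0.05, 10 Kcn probes were higher and 9 lower, 7.35% and 6.62% against 4.79% and 7.86% of all kept probes. Past these thresholds but with an adjusted p above 0.05 were probes of Kcna6, Kcnab2, Kcnh4, Kcnh7, Kcnj9 and Kcnk12 on the higher side and Kcnq1 on the lower. The calls depend on the full set of arrays: without any 1 of the vehicle arrays limma called no Kcn probe, although 8 to 10 were higher and 8 to 9 lower past the methods' thresholds, and without GSK-J4 arrays 1, 2 or 3 the counts were 5 higher and 4 lower, 17 and 6, or 7 and 11. The share of all kept probes called without an array was not compared, so these counts do not single out the Kcn probes. After a correction for the GC content of the probes 5 were higher and 9 lower, against 4.31% and 6.15% of all kept probes called in that fit.

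The median difference over the 136 Kcn probes was 0.16, against 0.02 over all kept probes, and 86 of them (63.2%) had a positive difference, against 52.7% of all kept probes. Over the 124 probes well above background on all 6 arrays differences ran from -1.65 to 0.86. In 72 Kcn probes (52.9%) the 3 GSK-J4 arrays did not overlap the 3 vehicle arrays, against 45.6% of all kept probes. For each of the called probes the groups did not overlap, and its exact two-sided permutation p was 0.1, which is the smallest that 3 against 3 arrays allow.

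**Figure D1:**
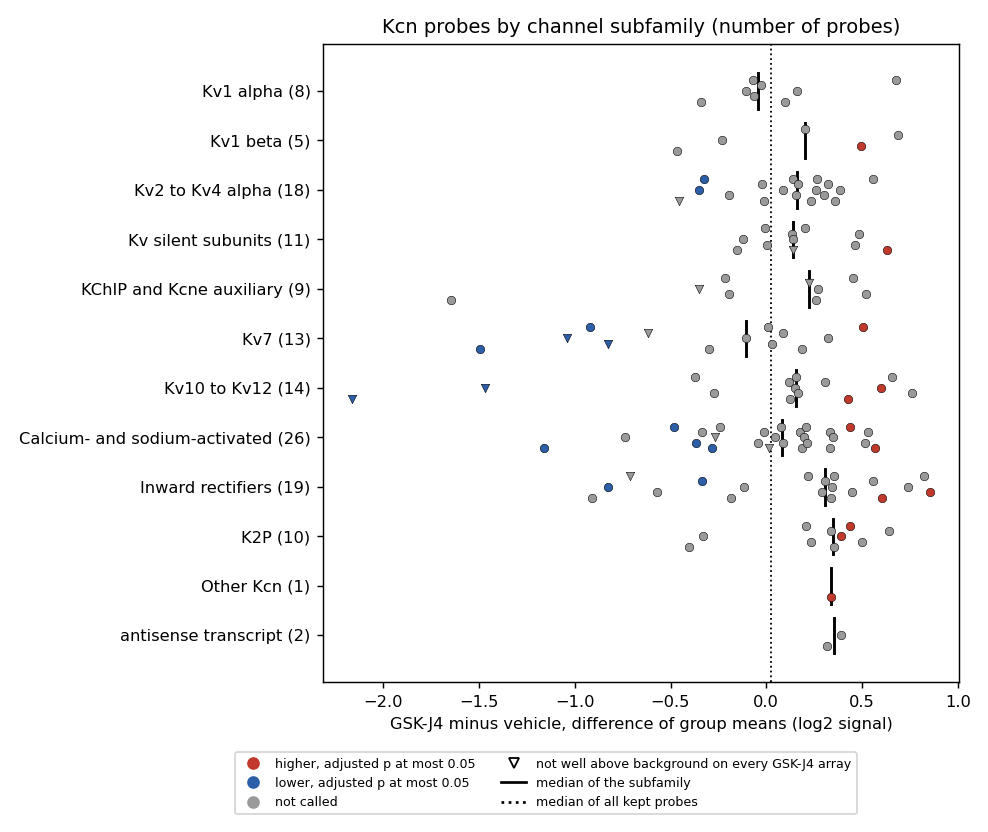
Difference between the GSK-J4 and vehicle means (log2 signal, 3 arrays each) for each of the 136 kept Kcn probes, in rows by channel subfamily with the number of probes in brackets. Red and blue points passed an adjusted p of 0.05, triangles were not well above background on every GSK-J4 array, so their position is the measured value and no exact fold, bars are subfamily medians and the dotted line is the median of all kept probes at 0.02. Red and blue points lie in both directions in the Kv7, Kv10 to Kv12, calcium- and sodium-activated and inward rectifier rows.

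Several genes were represented by probes that moved apart, and the first 30 bases of 10 probes of the 60-base design are shown here, 5′ to 3′ as spotted, to make clear which stretch of each transcript a value belongs to. Capitals mark G and C bases, since the GC content of a probe went with its difference on these arrays. That GC content is of all 60 bases, and the 30 shown can differ from it. Both Kcnq5 stretches hold 46.7% GC, while the whole probes hold 35% and 45%. The Kcnq3 stretches hold 40% and 56.7%, while both whole probes hold 45%. For Kcnq5, Kcnq3 and Kcnh7 the first probe of the pair is the one that fell and the second is annotated to the RefSeq mRNA. For Kcnma1 the first fell and the second rose. Kcnj6 and Kcnj5 are the inward rectifier subunits with the largest called fall and rise.
Kcnq5 A_55_P2717258: GGaCCaGaaaaGaaatttCCCCCtGaCaCa
Kcnq5 A_52_P83097: CtGtCtGtaCaaaaCCtGatCaGGtCGaCa
Kcnq3 A_55_P2721718: tatGCCttCtCCaGGCataGaattatGtGt
Kcnq3 A_55_P2086213: aaCtGGaGCGGtCtCCaaGtGGCttCaGCa
Kcnh7 A_52_P376374: taGaGaaGattaGGtaCaGtttataaaaaC
Kcnh7 A_55_P2012704: aaaCaaGaCaGtGatGCGtCatCaGaGCtt
Kcnma1 A_55_P2378486: tGGGtGGGCaGtCaatGtataCatGtaaat
Kcnma1 A_55_P2738501: GaaGGtaCtttaGGatttttCatCGCaaGt
Kcnj6 A_52_P191086: GtGtCaCCattGattattaGCCatGaaatt
Kcnj5 A_55_P2163961: ttaGtaaGataaCaGaCCCaatCaGGtttC
In the mm9 coordinates that the array files give, the Kcnq5 probes lie at chr1:21567995-21568054 and chr1:21392496-21392555. The Kcnq3 probes lie at chr15:66114648-66114707 and chr15:65826897-65826956. Those of Kcnh7 lie at chr2:63019569-63019628 and chr2:62541102-62541161. The Kcnma1 probes lie at chr14:24126279-24126338 and chr14:24255239-24261264, where the 60 bases of the second are spread over 6026 bases of genome. The Kcnj6 probe lies at chr16:95053973-95054032 and the Kcnj5 probe at chr9:32122418-32122477. All 10 are on the minus strand. Which exon, intron or UTR each probe falls in was not analysed here, since no annotation of this build was used.

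Among inward rectifiers, the G protein-gated inward rectifiers moved in opposite directions: Kcnj5 and Kcnj9 rose while Kcnj6 and Kcnj3 fell. Kcnj5 encodes GIRK4, and its signal was 4.35, 4.69 and 4.72 on the vehicle arrays and 5.46, 5.50 and 5.36 on the GSK-J4 arrays. Every GSK-J4 array was above every vehicle array, and the difference was 0.86 ± 0.12 (SE; adjusted p = 0.0174), a 1.81-fold higher signal. The probe was well above background on all 6 arrays but dim. The lowest such signal was 3.79 to 3.90 on the vehicle arrays and 4.39 to 4.64 on the GSK-J4 arrays, so the size of the fold is uncertain. Kcnj9, which encodes GIRK3, was read by 3 probes. The called one read 9.97, 10.04 and 9.90 on the vehicle arrays and 10.84, 10.27 and 10.62 on the GSK-J4 arrays, with GSK-J4 array 2 the closest to the vehicle arrays, and rose by 0.61 ± 0.15 (SE; adjusted p = 0.0499). Its other probes differed by 0.74 (adjusted p = 0.066) and 0.31 (adjusted p = 0.361).

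Kcnj6 encodes GIRK2, the subunit that neuronal GIRK channels in the brain most often contain. Its signal was 8.29, 8.04 and 8.13 on the vehicle arrays and 7.24, 7.49 and 7.24 on the GSK-J4 arrays. All 3 GSK-J4 arrays were below all 3 vehicle arrays, and the difference was -0.83 ± 0.11 (SE; adjusted p = 0.0165), a 1.77-fold lower signal. Kcnj3 encodes GIRK1, which needs a partner subunit to reach the surface. Its called probe read 10.46, 10.49 and 10.38 on the vehicle arrays and 10.17, 10.10 and 10.04 on the GSK-J4 arrays and fell by 0.34 (adjusted p = 0.0359), while its second probe differed by 0.22 (adjusted p = 0.586) with GSK-J4 array 3 at 7.5 below the vehicle arrays and the other GSK-J4 arrays above them. Without GSK-J4 array 3 this second probe of Kcnj3 was called higher (0.52, adjusted p = 0.0499), against the fall of the first, and without GSK-J4 array 1 its difference was -0.0038. After the GC correction Kcnj5 (0.78, adjusted p = 0.0277) and Kcnj6 (-0.86, adjusted p = 0.022) kept their calls, and Kcnj9 (0.53, adjusted p = 0.0792) and Kcnj3 (-0.17, adjusted p = 0.183) did not. Total RNA from a whole tissue block cannot tell fewer cells of a type from less RNA per cell.

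Of the ATP-sensitive channel genes none was called. Kcnj11 encodes the pore subunit Kir6.2, and its brighter probe read 7.76, 7.76 and 7.73 on the vehicle arrays and 8.41, 8.0 and 8.18 on the GSK-J4 arrays. The groups did not overlap, with a difference of 0.45 ± 0.12 (SE; adjusted p = 0.0528), and its second probe differed by 0.34 (adjusted p = 0.225). Kcnj8, the pore subunit known from pericytes and smooth muscle, differed by -0.18 ± 0.12 (SE; adjusted p = 0.319). Their sulfonylurea receptor genes Abcc8 and Abcc9 differed by -0.19 (adjusted p = 0.135) and 0.01 (adjusted p = 0.95).

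Glial and classical inward rectifiers were not called either. Kcnj10 encodes Kir4.1, the main potassium channel of astrocytes, and its signal was 13.59, 13.58 and 13.55 on the vehicle arrays and 11.95, 13.45 and 13.60 on the GSK-J4 arrays. GSK-J4 array 1 alone was low, and without it the difference went from -0.57 to -0.05. On the same array the astrocyte markers Aqp4, Gfap and Gja1 were at their lowest of all 6 arrays, at 10.96, 12.36 and 10.01, and the 5 others were not. None of the 8 was called, and their summed signal, in which bright genes such as S100b weigh most, was 64858 there, 65285 and 67556 on the other GSK-J4 arrays and 59243 to 61351 on the vehicle arrays. The part of astrocyte content in the Kcnj10 value was not tested. Kcnj16, whose product Kir5.1 assembles with Kir4.1, differed by 0.35 ± 0.14 (SE; adjusted p = 0.131). The probes of Kcnj12 differed by 0.82 and 0.56, with adjusted p of 0.14 and 0.169, and the GSK-J4 arrays ranged widely, from 8.45 to 9.83 for the first. Kcnj2, the Kir2.1 gene, differed by -0.12 (adjusted p = 0.489) at its bright probe. Its dim probe did not stand well above background on any GSK-J4 array and was not called, with means of 4.85 and 4.13 (adjusted p = 0.162). The bound from the means was 1.20-fold lower, but no fall can be stated. Over the 19 inward rectifier probes the median difference was 0.31, with 2 called higher and 2 lower, and the median was 0.08 after the GC correction and 0.17 without GSK-J4 array 3.

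Kcnj13 and Kcne2, 2 genes known for strong expression in the choroid plexus, were set apart by 1 array. Kcnj13 encodes Kir7.1 and read 13.10, 7.17 and 8.09 on the vehicle arrays and 8.79, 8.56 and 8.27 on the GSK-J4 arrays. Kcne2 encodes a small auxiliary subunit and read 12.29, 5.49 and 5.38 on the vehicle arrays and 7.15, 4.97 and 6.09 on the GSK-J4 arrays. Vehicle array 1 was far above the other 5 arrays for both genes. The differences were -0.91 and -1.65, with adjusted p of 0.696 and 0.576, and without vehicle array 1 they became 0.91 and 0.64. The 8 of 10 choroid plexus markers with a kept probe (all but Cldn2 and Slc4a5) summed to a signal of 109692 on vehicle array 1, 3416 and 3497 on the other vehicle arrays and 2955 to 12500 on the GSK-J4 arrays. Ttr, the most abundant of them, stood at 16.15 on vehicle array 1 and at 10.42 to 13.24 on the other arrays. The part of choroid plexus tissue in these values was not tested.

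**Figure D2:**
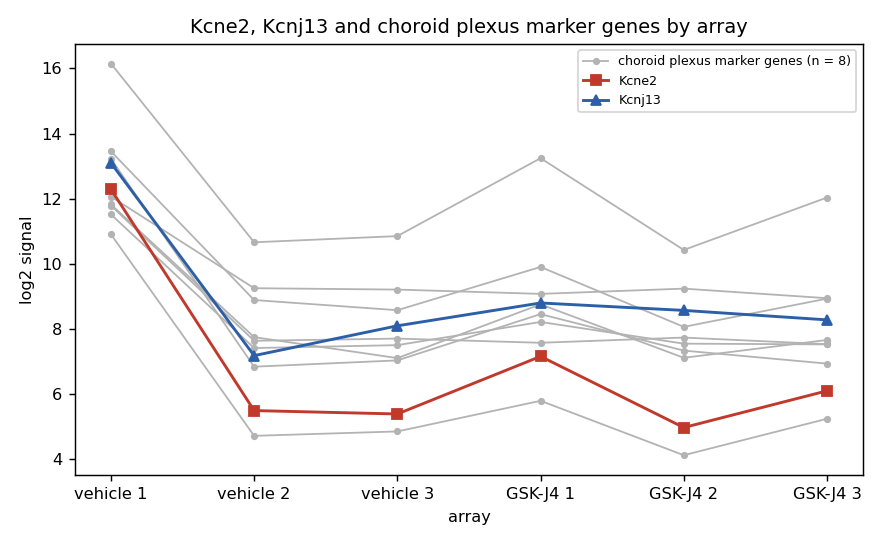
Log2 signal (y axis) of Kcne2 (red squares), Kcnj13 (blue triangles) and 8 choroid plexus marker genes (grey lines) on each of the 6 arrays (x axis). All 10 genes are highest on vehicle array 1, where Kcne2 stands at 12.29 and Kcnj13 at 13.10.

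The Kv7 subunits, Kcnq3 and Kcnq5 among them, form the M-current, a slow non-inactivating current that muscarinic receptors close and that restrains repetitive firing. Of the 13 Kv7 probes 4 fell and 1 rose, with a subfamily median of -0.11, or 0.02 over the probes well above background on all 6 arrays. Kcnq5 held the largest fall among called Kcn probes measured on all 6 arrays. Its probe A_55_P2717258, annotated to an Ensembl transcript, read 10.35, 10.46 and 10.33 on the vehicle arrays and 8.79, 9.12 and 8.74 on the GSK-J4 arrays. The groups were far apart, and the difference was -1.50 ± 0.12 (SE; adjusted p = 0.012), a 2.82-fold lower signal that kept its call after the GC correction (-1.33, adjusted p = 0.0164). The other Kcnq5 probes, all annotated to RefSeq mRNAs and lying up to 179 kb further downstream on the minus strand, differed by -0.30, 0.01 and 0.32, none called (adjusted p = 0.173, 0.981 and 0.195).

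Kcnq3 had 2 kept probes and they were called in opposite directions. The RefSeq probe A_55_P2086213 read 7.68, 7.94 and 7.66 on the vehicle arrays and 8.42, 8.18 and 8.20 on the GSK-J4 arrays and rose by 0.51 ± 0.12 (SE; adjusted p = 0.0388), a call that was lost after the GC correction (0.43, adjusted p = 0.0716). The Ensembl-annotated probe A_55_P2721718, 288 kb upstream of it, read 5.18, 4.78 and 4.92 on the vehicle arrays and 3.87, 3.56 and 4.33 on the GSK-J4 arrays and was not well above background on any GSK-J4 array. Its group means were 4.96 and 3.92 (adjusted p = 0.0329). With the lowest signal well above background on those arrays as the limit, the bound from the means was 1.37-fold lower. Kcnq1, better known from heart and epithelia, was likewise not well above background on any GSK-J4 array. It was not called, with means of 4.52 and 3.90 (adjusted p = 0.094). The bound from the means was 1.01-fold lower, but no fall can be stated.

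Among the EAG, ERG and ELK channels (Kv10 to Kv12), Kcnh1 and Kcnh2 rose at 1 probe each. Kcnh2 encodes ERG1, which carries a repolarising current in heart and neurons. Its called probe read 7.54, 7.46 and 7.5 on the vehicle arrays and 8.20, 8.09 and 8.01 on the GSK-J4 arrays, with tight groups far apart, and rose by 0.60 ± 0.08 (SE; adjusted p = 0.0163), while the other probe differed by 0.16 (adjusted p = 0.582). Kcnh1, which encodes EAG1, read 8.05, 7.99 and 7.91 on the vehicle arrays and 8.39, 8.48 and 8.36 on the GSK-J4 arrays at its called probe and rose by 0.43 ± 0.08 (SE; adjusted p = 0.0254). Its other probes differed by 0.12 and -0.27 (adjusted p = 0.467 and 0.179). The calls of Kcnh1 and Kcnh2 held after the GC correction.

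Kcnh7, which encodes the neuronal ERG3 subunit, had probes on both sides of 0. The RefSeq probe A_55_P2012704 read 5.90, 5.85 and 5.94 on the vehicle arrays and 7.07, 6.20 and 6.70 on the GSK-J4 arrays and differed by 0.76 ± 0.22 (SE; adjusted p = 0.0652), above the vehicle arrays on all 3 GSK-J4 arrays. The Ensembl-annotated probe A_52_P376374 read 4.53, 4.34 and 4.61 on the vehicle arrays and 1.89, 1.90 and 3.20 on the GSK-J4 arrays, and A_52_P408230 read 5.34, 4.73 and 5.07 on the vehicle arrays and 2.97, 3.57 and 4.21 on the GSK-J4 arrays. Neither was well above background on any GSK-J4 array. Both were called lower (adjusted p = 0.0237 and 0.0396), with means of 4.49 and 2.33 for the first and 5.05 and 3.58 for the second. With the lowest signal well above background as the limit, the bound from the means was 1.46-fold lower for the second. The first allows no fold, since its vehicle mean lay under that limit. Kcnh3, Kcnh4, Kcnh5, Kcnh6 and Kcnh8 had no called probe, and the median over the 14 probes was 0.15, or 0.0089 with 75th percentile scaling.

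Among the calcium- and sodium-activated channels, Kcnn2 encodes SK2, a small-conductance channel that calcium opens after action potentials, and all 4 of its probes were lower in the GSK-J4 group. The probe annotated to an Ensembl transcript read 6.48, 6.18 and 6.42 on the vehicle arrays and 5.50, 5.28 and 4.81 on the GSK-J4 arrays and fell by 1.16 (adjusted p = 0.0226), a 2.23-fold lower signal. A RefSeq probe read 9.19, 9.30 and 9.28 on the vehicle arrays and 8.93, 9.0 and 9.0 on the GSK-J4 arrays and fell by 0.28 (adjusted p = 0.0481), which was not called after the GC correction (-0.25, adjusted p = 0.0823). The groups were apart in both, and the 2 probes that were not called differed by -0.33 and -0.74 (adjusted p = 0.0559 and 0.245). The last had a spot marked as an outlier on 1 array, and GSK-J4 array 3 at 11.30 carried most of its difference, which was -0.27 without that array. Kcnn1, the related SK1 gene, went the other way, and its called probe read 9.07, 9.21 and 9.25 on the vehicle arrays and 9.68, 9.59 and 9.58 on the GSK-J4 arrays and rose by 0.44 ± 0.08 (SE; adjusted p = 0.0269). Its other probes differed by 0.35 and 0.21, and the rise of Kcnn1 was not called after the GC correction (0.17, adjusted p = 0.216). Kcnn3 and Kcnn4 were not called.

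Kcnma1 encodes the pore of the BK channel, which opens to calcium and voltage together, and its 6 probes gave 1 rise and 1 fall. The probe whose bases are spread over 6026 bases of genome, A_55_P2738501, read 11.20, 11.29 and 11.07 on the vehicle arrays and 11.88, 11.54 and 11.85 on the GSK-J4 arrays and rose by 0.57 ± 0.12 (SE; adjusted p = 0.0349). It lies 144 kb upstream of the most downstream Kcnma1 probe. A probe 14.6 kb upstream of that same point, A_55_P2378486, read 9.56, 9.61 and 9.53 on the vehicle arrays and 9.10, 9.30 and 9.19 on the GSK-J4 arrays and fell by 0.37 (adjusted p = 0.0363). The groups were apart in both cases, and the 4 others differed by 0.19, 0.17, 0.34 and -0.24, none called. After the GC correction the rise of Kcnma1 was called (0.74, adjusted p = 0.0308) and the fall at A_55_P2378486 was not (-0.26, adjusted p = 0.0856), while the brightest Kcnma1 probe, at -0.24 and not called before (adjusted p = 0.0692), was called lower (-0.32, adjusted p = 0.0495). Kcnmb4, the beta subunit of BK channels in neurons, differed by 0.07 and 0.04 at its 2 probes, with adjusted p of 0.536 and 0.781. Kcnt2, which encodes the sodium-activated channel Slick, read 9.04, 9.05 and 9.07 on the vehicle arrays and 8.57, 8.43 and 8.72 on the GSK-J4 arrays and fell by 0.48 (adjusted p = 0.0287), with vehicle arrays almost equal to each other. After the GC correction Kcnt2 was not called (-0.41, adjusted p = 0.0513). Kcnmb1, a beta subunit known from smooth muscle, had means of 4.16 and 3.89 (adjusted p = 0.432) and was not well above background on any GSK-J4 array, which allows no fold. Kcnt1, a relative of Kcnt2 that encodes Slack, differed by 0.18 and -0.01 (adjusted p = 0.422 and 0.982). Over the 26 probes of this subfamily 2 were called higher and 4 lower, and the median was 0.08.

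Kv1 to Kv4 channels and their auxiliary subunits gave few calls. None of the 8 Kv1 alpha probes was called. Kcna1 and Kcna2, which sit along axons, differed by -0.10 and 0.10 (adjusted p = 0.332 and 0.605). A probe of Kcnab2, the beta subunit that binds Kv1 channels, read 8.51, 8.50 and 8.45 on the vehicle arrays and 8.88, 9.03 and 9.04 on the GSK-J4 arrays and rose by 0.50 ± 0.08 (SE; adjusted p = 0.0204). The second Kcnab2 probe differed by 0.69 with the groups apart (adjusted p = 0.0735). Among the 18 probes of Kv2 to Kv4, 2 fell. Kcnd2 encodes the A-type channel Kv4.2 of dendrites. It read 13.11, 13.08 and 13.09 on the vehicle arrays and 12.61, 12.77 and 12.86 on the GSK-J4 arrays and fell by 0.35 (adjusted p = 0.0467). Kcnc2 encodes Kv3.2 of fast-spiking neurons. It read 11.57, 11.62 and 11.74 on the vehicle arrays and 11.30, 11.34 and 11.31 on the GSK-J4 arrays at its called probe and fell by 0.33 (adjusted p = 0.0392), while its second probe differed by 0.16 (adjusted p = 0.693). GSK-J4 arrays lay below vehicle arrays in both of the called probes, and neither fall was called after the GC correction (-0.28, adjusted p = 0.0916 for Kcnd2 and -0.22, adjusted p = 0.101 for Kcnc2). For Kcnd1, another Kv4 gene, the probes well above background on all 6 arrays differed by 0.38 and 0.32 (adjusted p = 0.14 and 0.0548), with the GSK-J4 arrays above the vehicle arrays in both. The other Kcnd1 probe did not stand well above background on any GSK-J4 array and was not called, with means of 4.72 and 4.27 (adjusted p = 0.0966). The bound from the means was 1.15-fold lower, which takes no account of their error. That probe was called lower after the GC correction (adjusted p = 0.0498).

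Kcng1, a silent subunit that opens no channel alone and joins Kv2 subunits, read 10.03, 9.75 and 10.17 on the vehicle arrays and 10.80, 10.55 and 10.50 on the GSK-J4 arrays and rose by 0.63 ± 0.14 (SE; adjusted p = 0.0373), a 1.55-fold higher signal. Its groups did not overlap, and after the GC correction the value was 0.36, adjusted p = 0.144. Of the 11 silent-subunit probes it was the one called. The KChIP and Kcne genes gave no call in 9 probes. Kcnip3, which also acts as a calcium-dependent transcriptional repressor, differed by 0.52 and 0.45 (adjusted p = 0.0672 and 0.0764), and Kcnip2 and Kcnip4, partners of Kv4, by -0.19 and -0.22 (adjusted p = 0.448 and 0.202).

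Among the K2P channels, Kcnk4 encodes TRAAK, a leak channel opened by stretch and lipids, and it was the gene whose several probes were all called in 1 direction. These probes lie only 0.091 kb apart and are annotated to the same RefSeq mRNA. They read 9.12, 9.16 and 9.07 on the vehicle arrays and 9.66, 9.45 and 9.56 on the GSK-J4 arrays and 9.33, 9.46 and 9.38 on the vehicle arrays and 9.82, 9.71 and 9.81 on the GSK-J4 arrays. The arrays of the groups did not overlap at either, and the rises were 0.44 ± 0.08 (SE; adjusted p = 0.0272) and 0.39 ± 0.08 (SE; adjusted p = 0.0283). After the GC correction neither was called (0.29 and 0.14, adjusted p = 0.0725 and 0.228). Kcnk2, the related TREK1 gene, differed by -0.40 ± 0.11 (SE; adjusted p = 0.0532), in the other direction, and Kcnk3, the acid-sensitive TASK1 gene, by 0.50 ± 0.14 (SE; adjusted p = 0.0629). Neither was called. The median over the 10 K2P probes was 0.35, with 2 called higher and none lower. Kcnrg, a soluble regulator that keeps Kv subunits from assembling, read 6.37, 6.36 and 6.33 on the vehicle arrays and 6.57, 6.78 and 6.74 on the GSK-J4 arrays and rose by 0.34 ± 0.08 (SE; adjusted p = 0.0439), and after the GC correction this was not called (0.34, adjusted p = 0.0565). The antisense transcripts Kcnd3os and Kcnmb4os2 differed by 0.39 and 0.31 (adjusted p = 0.0692 and 0.0517).

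**Figure D3:**
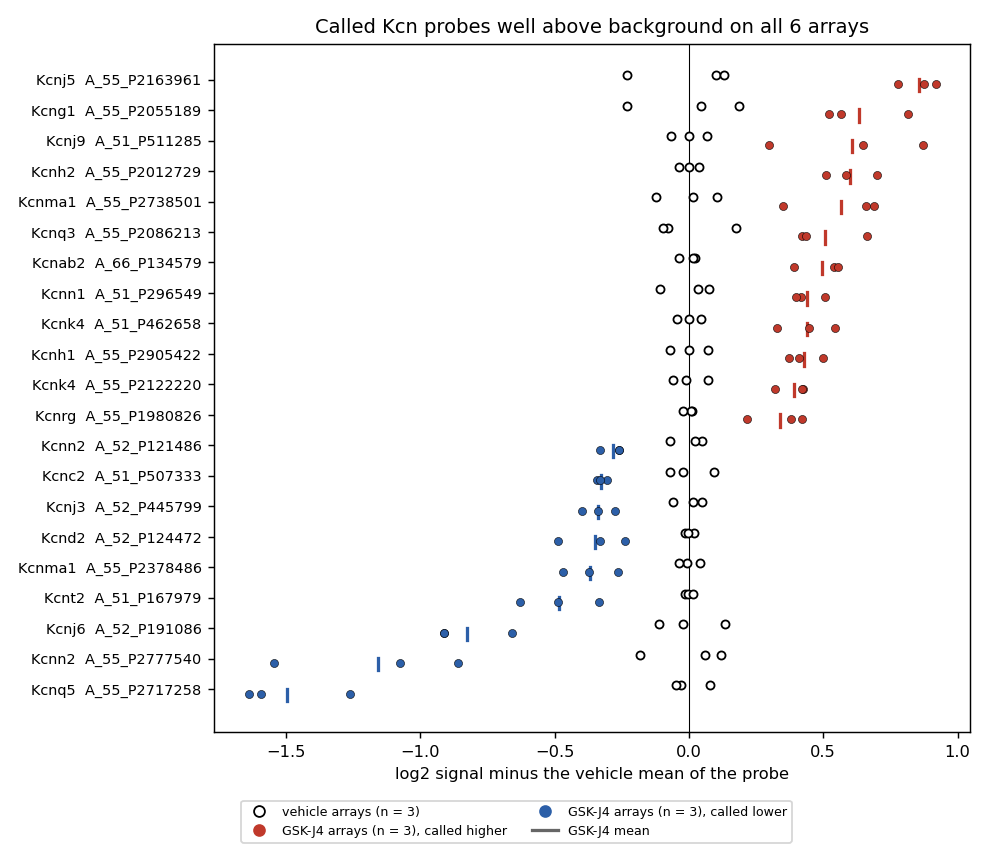
Log2 signal minus the vehicle mean of the same probe (x axis) for 21 called Kcn probes that were well above background on all 6 arrays, ordered by difference. Open points are the 3 vehicle arrays, filled points the 3 GSK-J4 arrays (red higher, blue lower) and short bars the GSK-J4 means, from 0.86 for Kcnj5 to -1.50 for Kcnq5.

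Probes of the same gene often disagreed. Of the 34 Kcn genes with several kept probes 14 had a called probe, and in 8 of these just 1 probe was called. Kcnk4, with probes 0.091 kb apart, was the gene with every probe called the same way, and Kcnma1 and Kcnq3 had calls in both directions. The range among the probes of a gene had a median of 0.39, with dim probes at their measured values, and it was 1.82 for Kcnq5, whose probes were all measured on all 6 arrays. For Kcnh7 and Kcnq3, with probes that were not well above background on any GSK-J4 array, no exact range can be given. In 16 of the 34 genes the probes had differences of both signs.

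The kind of transcript record behind a probe went with these splits, a pattern noticed after the values were seen and given without a test. Of the 136 Kcn probes 13 were annotated to an Ensembl transcript, and 7 of them were called lower (53.8%) and none higher. These 7 probes included those of Kcnh7 and Kcnq3, which have only bounds, and those of Kcnq5 (-1.50) and Kcnn2 (-1.16). Among all kept probes annotated to Ensembl transcripts 16.9% were lower and 5.22% higher, with a median of -0.14. Of the 114 Kcn probes annotated to RefSeq mRNAs 12 were higher (10.5%) and 7 lower (6.14%), beside 8.84% and 4.32% of all such probes. The 5 Ensembl-annotated probes that were not measured on all GSK-J4 arrays passed the filter through the vehicle group, and of the 8 that were well above background on all 6 arrays 3 were lower, against 16.6% of all such probes. After the GC correction 6 of these 7 falls were called, all but that of Kcnh7 A_52_P408230.

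**Figure D4:**
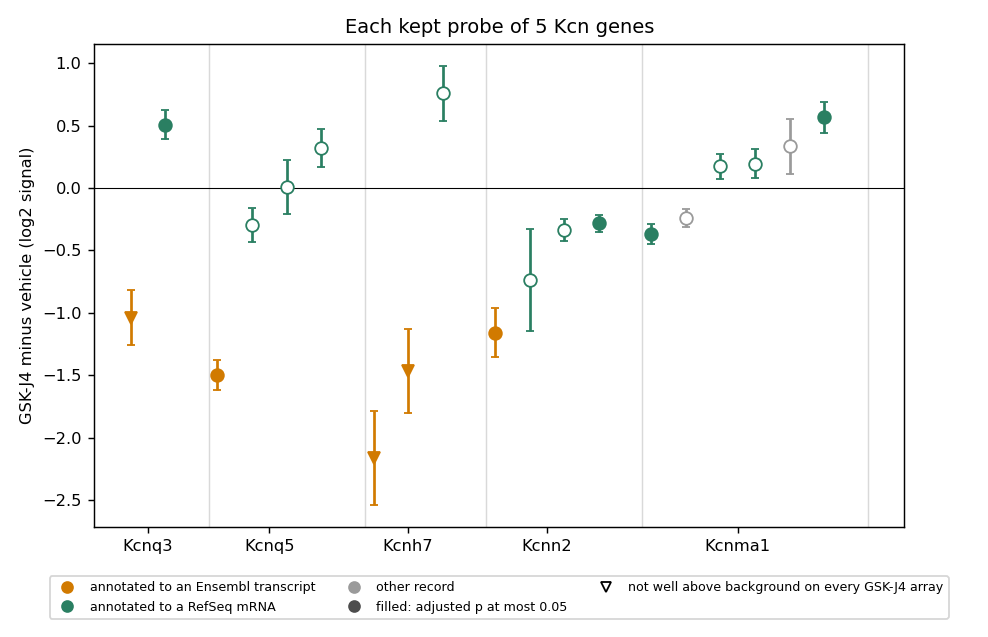
Difference between the GSK-J4 and vehicle means (y axis, log2 signal; bars are the SE of limma) for each kept probe of 5 Kcn genes, coloured by the transcript record it is annotated to. Filled symbols passed an adjusted p of 0.05 and triangles were not well above background on every GSK-J4 array, so that their depth is not an exact difference. The probe of an Ensembl transcript lies below the other probes at -1.50 in Kcnq5 and at -1.16 in Kcnn2.

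Kcn probes called higher had a median GC content of 45% and those called lower of 38.3%, against 41.7% over all 136. Of the 59 Kcn probes with a GC content of 45% or more 8 were higher (13.6%) and 2 lower (3.39%), and their median difference was 0.27. Of the 32 with at most 35% 1 was higher (3.13%) and 4 lower (12.5%), with a median of -0.0018. Over all kept probes the medians in the same bins were 0.15 and -0.16. In the first bin 14.3% of all kept probes were higher and 4.01% lower, and in the second 1.74% and 15.8%. In these outer bins the Kcn shares were near those of all kept probes. Of the 45 Kcn probes above 35% and below 45% GC, 3 were higher (6.67%) and 8 lower (17.8%). Of all kept probes in that middle bin 4.98% were higher and 9.21% lower. Across the 136 Kcn probes, which share the same 6 arrays, Pearson's r between GC content and difference was 0.27 and Spearman's rho 0.31, beside 0.32 and 0.36 over all kept probes. The part of base composition in the single differences was not tested beyond the GC correction.

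**Figure D5:**
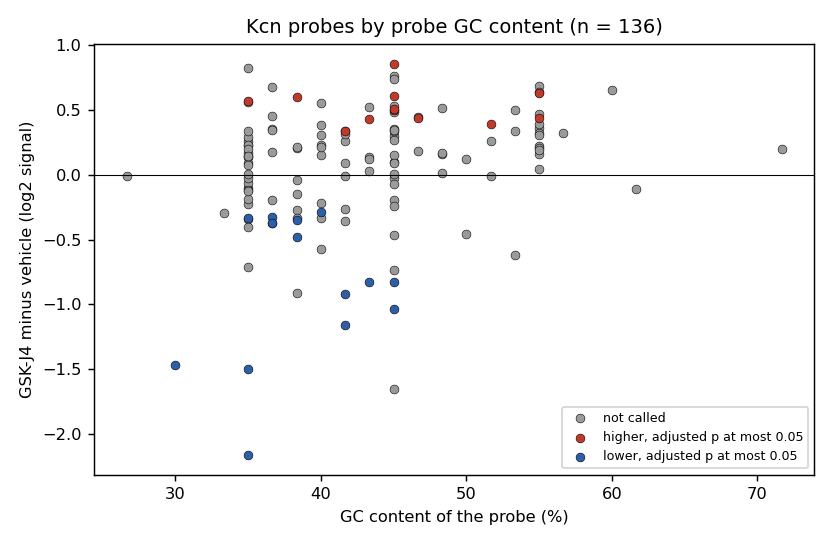
GC content of each kept Kcn probe (x axis, %) against its difference between the GSK-J4 and vehicle means (y axis, log2 signal), with called probes in red (higher) and blue (lower). Red points lie between 35% and 55% GC and blue points between 30% and 45%.

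Other genes make products that work with the channels. Of 18 genes for non-Kcn partners (sulfonylurea receptors, dipeptidyl peptidase-like proteins, BK gamma subunits, scaffolds and adhesion proteins) 16 had a kept probe, and 5 of their 38 probes were higher (13.2%) and 3 lower (7.89%), against 8.39% and 8.42% of all kept probes, with a median of 0.01. Amigo1, a membrane protein that binds Kv2 channels, rose by 0.54 ± 0.07 (SE; adjusted p = 0.0163) at 1 of 2 probes, the other differing by 0.53 (adjusted p = 0.0562). Vapb, an endoplasmic reticulum protein that tethers Kv2 channels, rose by 0.74 ± 0.09 (SE; adjusted p = 0.0146) at 1 of 2, while its brighter probe differed by 0.31 with overlapping groups (adjusted p = 0.519). Lrrc55, a gamma subunit of BK channels, rose by 0.86 ± 0.15 (SE; adjusted p = 0.0254) at 1 of its 2 probes. Dlg4, which encodes the scaffold PSD-95, rose by 0.80 ± 0.09 (SE; adjusted p = 0.0147) at 1 of 3, and Cntn2, an adhesion protein that gathers Kv1 channels on axons, by 0.39 ± 0.09 (SE; adjusted p = 0.0373) at 1 of 2.

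The partner genes that fell also did so at single probes. Dpp6, an auxiliary subunit of Kv4 channels, read 9.32, 9.36 and 9.55 on the vehicle arrays and 7.35, 8.05 and 8.09 on the GSK-J4 arrays at its called probe and fell by 1.58 (adjusted p = 0.0172). Its brightest probe read 13.15, 13.31 and 13.21 on the vehicle arrays and 13.37, 13.30 and 13.30 on the GSK-J4 arrays, and differed by 0.10 (adjusted p = 0.389). Dlg2, a scaffold of Kv channels and synapses, fell by 1.08 (adjusted p = 0.0144) at 1 of 6 probes, which like the called probe of Dpp6 is annotated to an Ensembl transcript. Lgi1, a secreted protein tied to Kv1 channels, fell by 0.30 (adjusted p = 0.0428) at 1 of 2. Dpp10, which also binds Kv4, was not called at any of 3 probes.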

How the data were processed

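Total RNA from 6 hypothalamus samples was hybridised to 6 one-colour Agilent arrays, 3 per group. The authors scanned them, extracted intensities with Agilent Feature Extraction 10.7.1.1 (per the submitters' processing notes) and deposited scanner intensity values for each spot and a table of log2 signals after quantile normalization. Columns of that table matched their own array at r of 0.999 or more, and 0 columns were unmatched. Gene names, probe sequences and mm9 coordinates are those of the array files, and all 97 Kcn names are current RefSeq symbols (GRCm38.p6). Spots of 1 probe were averaged.

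Differences were tested on the deposited log2 values with limma 3.58.1 (R 4.3.3; lmFit and eBayes, no covariates) over all 34444 kept probes. Bounds used the lowest signal well above background on each array (log2 3.79 to 3.90 for vehicle, 4.39 to 4.64 for GSK-J4), or the measured signal where that was higher. They compare group means and take no account of their error. The lowest signal is also not a limit for each probe. The dim Kcnj2 probe read 4.64 on GSK-J4 array 3, above the 4.39 of that array, and was not well above background. No kept Kcn probe was saturated. The number of arrays limits the precision: in simulated data with 200 of 34444 probes changed by 1 log2 unit, 49.4% were recovered and 5.47% of calls were false. These shares need not hold for the real arrays, where 16.8% of the kept probes were called. The simulated noise also held no slide or scan effect. Alternatives were quantile normalization of the scanner signals, 75th percentile scaling, normexp with an offset of 50, no filter or a filter on all 6 arrays, a mean-variance trend, array weights, the methods' t-test, the replicate number as a block, a lowess correction for probe GC content, 1 value per gene, and leaving out each array.

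Named genes were the called probes measured on all 6 arrays with groups apart (at most 10 rises and 10 falls by rule; the remaining rises are given too), genes with calls in both directions, a list of channel and partner genes with known roles, and probes not well above background in 1 group. Some of these genes are not reported here by name but are included in all counts and medians. Members, gene lists and marker lists were chosen with earlier results of these data known.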

Additional observations from a re-analysis of the deposited data

How the results depend on the processing

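The differences of the 26 called Kcn probes kept their direction in all 475 recomputed values, and 225 of them also kept the call while 250 did not. Direction could change only where signals were normalized anew or corrected for GC content. The other settings reuse the same values, and leaving out an array cannot reverse groups that do not overlap. Main counts of called Kcn probes were 12 higher and 14 lower. They became 0 and 0 with the methods' t-test without equal variances (3 higher and 7 lower past the methods' thresholds, which use the unadjusted p), 7 and 6 with equal variances, 5 and 9 after the GC correction, and 7 and 5 with 1 probe per gene or the mean of the probes of a gene. Without a filter 9 were lower. Counts here rest on 136 Kcn and 38 partner probes, but on 84 and 16 genes with 1 value per gene. They rest on 176 and 47 probes without a filter, and on 124 and 37 with the filter on all 6 arrays. Counts on different bases are not directly comparable. Leaving out 1 array gave 0 to 17 higher and 0 to 11 lower. Past the methods' thresholds (10 higher, 9 lower) the counts were 3 and 4 with normexp, 4 lower with the filter on all 6 arrays, 5 and 2 with 1 probe per gene, 4 and 4 with gene means, and 3 to 16 higher and 8 to 9 lower without 1 array. Partner calls (5 higher, 3 lower) were 0 and 0 with the methods' t-test, 3 higher with equal variances, 3 higher after the GC correction, 2 and 1 with 1 probe per gene or gene means, and 0 to 5 higher and 0 to 3 lower without 1 array. The cause of these changes was not tested. Shares of all kept probes were compared for the main fit and the GC correction alone. Counts in the other settings, the replicate block among them, therefore do not single out Kcn or partner probes. Vehicle and GSK-J4 arrays of the same replicate number deviated together at r of 0.01, 0.03 and 0.08, and arrays of different numbers at -0.0997 to 0.0954. These values cannot show whether samples of the same number were paired. With the replicate block 0 Kcn and 0 partner probes were called in either direction by limma, also with the GC correction, while 9 Kcn probes were higher and 10 lower past the methods' thresholds (8 and 10 with the GC correction).

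Among subfamily medians, 75th percentile scaling gave 0.0504 for the KChIP and Kcne genes, 0.00887 for Kv10 to Kv12, 0.16 for Kcnrg and 0.24 for the antisense transcripts. Normexp gave 0.10 for Kv10 to Kv12 and 0.19 for Kcnrg. The GC correction gave 0.27 for Kv1 beta, 0.13 for Kv10 to Kv12, 0.0775 for inward rectifiers and 0.22 for the antisense transcripts. No filter gave 0.35 for Kv1 beta and 0.22 for K2P. One value per gene gave 0.0164 for the KChIP and Kcne genes, and gene means the same value for these and -0.35 for Kv7. Leaving out 1 array gave -0.0579 to 0.0556 for Kv1 alpha, 0.0580 to 0.34 for Kv1 beta, -0.00824 to 0.28 for the KChIP and Kcne genes and 0.0927 to 0.23 for Kv10 to Kv12. The Kv7 median turned from -0.11 to 0.0183 with the filter on all 6 arrays, and that of Kv1 alpha from -0.0437 to 0.0174 with normexp. The silent subunits went from 0.14 to 0.0257 with 75th percentile scaling and 0.0585 without GSK-J4 array 3, and the inward rectifiers from 0.31 to 0.17 without that array. Shifts from the turn of the Kv7 median onwards, and those not listed, were smaller than the pooled SD of a subfamily's median between arrays of a group. The shifts given before it were larger than that SD, in the ranges without 1 array at 1 end or more. That SD was 0.0146 for Kv10 to Kv12 and 0.18 for inward rectifiers. Dim probes limit what can be read in Kcnh7, Kcnq3, Kcnq1, Kcnj2, Kcnd1 and Kcnmb1, and in the size of the Kcnj5 rise.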
